A study of Homo sapiens with 4 samples.

Results

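The retinoid receptors RARA, RARB, RARG, RXRA and RXRB, the cellular retinoic acid binding proteins CRABP1 and CRABP2, and the enzymes CYP26A1, CYP26B1 and DHRS3 were examined in SK-N-BE(2) cells with SAPCD2 knockdown. These 10 genes were chosen by name, and all 10 were found by GENCODE symbol among the 64252 Ensembl identifiers of the count matrix. The series held 4 RNA-seq libraries of SK-N-BE(2), a MYCN-amplified human neuroblastoma line, with 2 libraries from cells given scrambled shRNA (sh-Scb) and 2 from cells given sh-SAPCD2. The labels name no retinoid for any of the 4 libraries. Per the study's methods, shRNA was delivered by lentivirus and cells were selected with puromycin. The labels do not say which shRNA against SAPCD2 was sequenced, although the study names sh-SAPCD2#1 for its RNA-seq values. Nothing states that the libraries came from separate cultures, so p-values measure only the spread between these libraries, which may be technical.

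Retinoic acid, made from vitamin A, enters the nucleus and binds RAR proteins, which sit on DNA as pairs with RXR proteins. Without ligand the pair holds corepressors on its target genes, and with ligand it exchanges them for coactivators. CRABP proteins carry retinoic acid in the cytoplasm, CYP26 enzymes break it down, and DHRS3 turns retinal back into retinol. 13-cis-retinoic acid is given to children with high-risk neuroblastoma because retinoids push neuroblastoma cells to stop dividing and to extend neurites.

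Several of these genes are themselves targets of the receptors, through retinoic acid response elements, which are direct repeats of a short half-site. Half-sites were spelled AGGTCA or AGTTCA, as well as GGGTCA or GGTTCA, and were searched on both strands in pairs with a spacer of 1, 2 or 5 bases. The following matches were found in hg38 from 2000 bases upstream to 500 bases downstream of the canonical start of the 10 genes. They are shown because RARB and CRABP2 are among the genes that changed and CYP26A1 is the gene most often read as a sign of retinoid signaling. Half-sites are in capitals and the spacer is in lower case.
RARB, spacer of 5: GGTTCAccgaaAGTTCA
CYP26A1, near the start, spacer of 5: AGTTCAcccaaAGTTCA
CYP26A1, far upstream, spacer of 5: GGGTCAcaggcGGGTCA
CRABP2, spacer of 1: AGTTCAgGGTTCA

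The RARB repeat lies on the strand of the gene, on chromosome 3 from 25428210 to 25428226, with its first base at position -53 from the start. The near CYP26A1 repeat lies on the opposite strand on chromosome 10 from 93073803 to 93073819, at position -90 from the GENCODE canonical start and downstream of the RefSeq start. The far one runs from 93071917 to 93071933, at position -1976. The CRABP2 repeat lies on chromosome 1 from 156706028 to 156706040, at position -457. No match was found in this window for the other 7 genes, which says only that these letters are not there. Among 13618 tested protein-coding genes, 0.58% of such windows held a repeat with a spacer of 5, 8.04% one with a spacer of 2 and 1.35% one with a spacer of 1. In the narrower RefSeq promoters, which run from 250 bases before to 50 bases after each start, a repeat with a spacer of 5 was found in 5 of 11925 tested genes (0.0419%), and all 10 genes had a promoter in that set. RARB was the only one of the 10 with a direct repeat there. The 120 bases upstream of its start (GRCh38.p14, chr3:25428143-25428262, plus strand) are given since RARB fell after knockdown, with the direct repeat in capitals. They also hold 1 single half-site, GGGTCA, left in lower case.
RARB promoter, positions -120 to -1: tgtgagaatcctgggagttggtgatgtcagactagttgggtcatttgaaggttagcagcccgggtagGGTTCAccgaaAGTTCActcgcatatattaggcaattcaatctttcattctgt

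SAPCD2 itself had 83.6 and 82.2 CPM (counts relative to library size, with TMM scaling) in sh-Scb libraries against 35.4 and 52.5 CPM in sh-SAPCD2 libraries. Knockdown gave a log2 fold change of −0.91 with an SE (standard error) of 0.193 and an adjusted p of 0.0206. Here and below, adjusted p-values are those of the edgeR quasi-likelihood test, adjusted by Benjamini-Hochberg over 18779 tested genes. Libraries held from 25347900 to 31850997 counts. The smallest amount taken as detectable, 3 counts in a library, equaled 0.0942 to 0.118 CPM, a floor that covers counting error only. Across 15682 genes with at least 1 CPM, squared differences between libraries had a median of 2.84 times the counting noise in the control pair and 17.2 times in the sh-SAPCD2 pair. Thus the knockdown libraries differed from each other more than the controls did.

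The cells were checked against markers. All 12 adrenergic neuroblast markers examined were detected, with a summed level of 2944 to 3038 CPM in control libraries and 2553 to 3225 CPM in knockdown libraries. Of these 12, 1 rose (HAND1, 8.33%) and 4 fell (33.3%), ISL1 and DBH among them, against 12.4% and 12.5% of all tested genes. Mesenchymal markers (8 genes) summed to 1422 to 1439 CPM in sh-Scb libraries against 730 to 751 CPM in sh-SAPCD2 libraries. Most of this sum was VIM, at 1197 and 1179 CPM in sh-Scb libraries against 518 and 555 CPM in sh-SAPCD2 libraries. VIM and FN1 fell among the 7 tested (28.6%, against 12.5% of all tested genes), and PRRX1 had no count. The other 5 tested did not pass the test. Immune markers (5 genes) summed to 9.6 to 10.3 and 12.4 to 14.3 CPM, with CD3E and MS4A1 at 0. Most of this was PTPRC, which did not pass the test (adjusted p = 0.24 by edgeR). CD14 and CD68 rose among the 3 tested (66.7%, against 12.4% of all tested genes), from few counts. CD14 had 15 and 16 counts in controls and 39 and 43 after knockdown. CD68 had 1 and 2 counts in controls, below the detection floor, and 11 and 12 after knockdown. Of 5 Schwann markers, SOX10 was at 0 and 1 of 2 tested rose, with sums of 2.54 to 3.91 and 5.02 to 7.29 CPM. Fibroblast markers (5 genes) summed to 346 to 364 and 392 to 424 CPM, and the 4 tested had adjusted p-values from 0.054 to 0.81. The part of these markers in the results was not tested. In bulk RNA, fewer cells of a type and less RNA per cell cannot be told apart.

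RARA, CRABP1 and CRABP2 rose and RARB fell in SAPCD2-knockdown cells. The rises were between 1.57-fold and 1.76-fold, and RARB was 1.52-fold higher in control cells than in knockdown cells. RARG, RXRA, RXRB and DHRS3 did not pass the test, and CYP26A1 and CYP26B1 were at or below the detection floor. By number, 3 of 8 tested members were higher (37.5%) and 1 of 8 was lower (12.5%) at an adjusted p of 0.05. The background was 12.4% of all tested genes higher and 12.5% lower, or 24.8% in either direction. The share called lower was that of the background. The share called higher was above it, but it was 12.5% without the first sh-Scb library (background 6.09%) and 0% without the second (5.92%), and no member was then called lower. With the correction for GC content and length, 3 of 8 were called lower (37.5%, background 20.3%) and 3 of 8 higher (background 22.2%). The median log2 fold change was 0.10 over the 8 members and 0.02 over all tested genes. At the thresholds of the study (adjusted p under 0.05 and absolute log2 fold change over 1), 4.69% of tested genes were called higher and 5.15% lower by edgeR (9.84% in all), and 0 of the 8 members. None of the 8 passed an absolute log2 fold change of 1 under DESeq2 or any other alternative run. The 2 libraries of each group did not overlap in 3 of 8 members with higher and 3 of 8 with lower levels, against 33.5% and 33.4% of all tested genes.

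**Figure D1:**
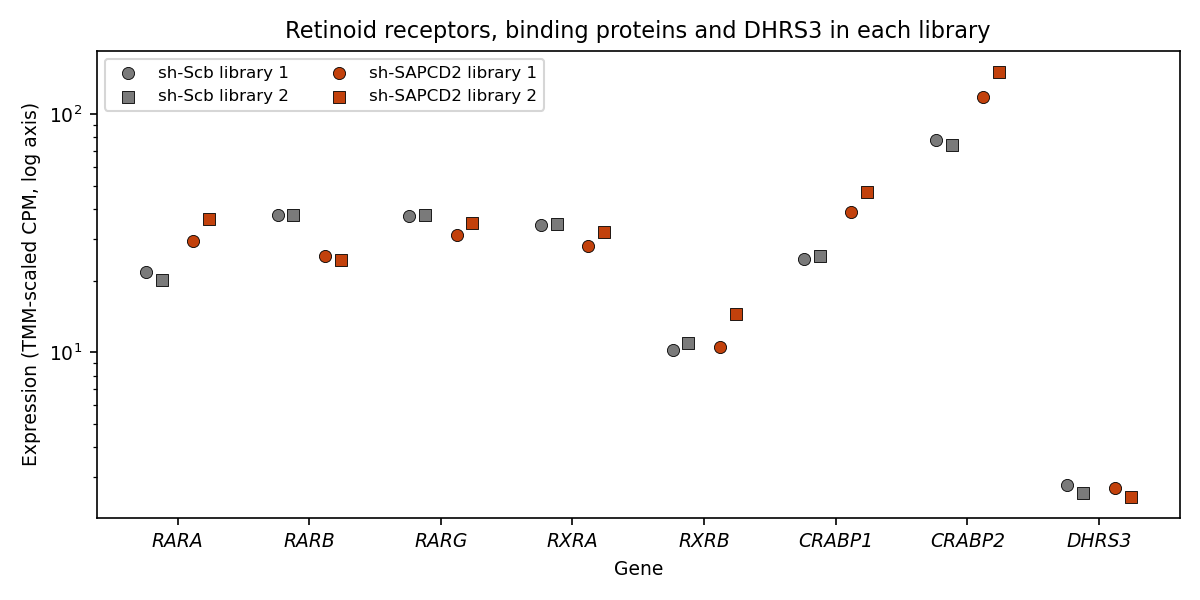
TMM-scaled CPM on a log axis (y) of the 8 tested genes (x), with 1 point per library, gray for sh-Scb and orange for sh-SAPCD2. Both knockdown libraries lie above both controls for RARA, CRABP1 and CRABP2 and below both for RARB, RARG and RXRA, and the groups overlap for RXRB and DHRS3.

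RARA encodes RARα, the most broadly expressed retinoic acid receptor, on chromosome 17 from 40309180 to 40357643 in hg38. It had 601 and 552 counts in sh-Scb libraries against 744 and 1144 counts in sh-SAPCD2 libraries, or 21.8 and 20.1 against 29.4 and 36.4 CPM. Both knockdown libraries were above both controls, and the second was the higher of the pair. Means were 20.9 ± 1.20 and 32.9 ± 4.98 CPM (SD, n = 2 per group), which gave a log2 fold change of 0.66 (SE 0.157, adjusted p = 0.0296 by edgeR). RARA overlaps RARA-AS1 on the other strand, and the strand setting of the counting is not given in the sources used here, so reads of the pair cannot be told apart. The call was lost without the first or the second sh-Scb library, where the log2 fold change was 0.71 or 0.60. Calls over all tested genes fell in those runs as well. Without a filter on low counts the adjusted p of RARA was 0.0824 by edgeR. With each library corrected for GC content and length the log2 fold change was 0.44 (adjusted p = 0.00791). The call held in 8 of 11 alternatives.

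RARB encodes RARβ, the receptor whose own gene is switched on by retinoic acid through the repeat shown above. The gene spans chromosome 3 from 24687887 to 25597932. It had 1041 and 1043 counts in sh-Scb libraries against 645 and 765 counts in sh-SAPCD2 libraries, or 37.7 and 37.9 against 25.5 and 24.4 CPM. The libraries of each group lay close together and the groups did not overlap. Means were 37.8 ± 0.156 and 24.9 ± 0.793 CPM (SD, n = 2 in each group), and the log2 fold change was −0.60 (SE 0.122, 95% confidence interval −0.90 to −0.30, adjusted p = 0.0186 by edgeR). Over 11 alternatives it ranged from −0.64 to −0.48. The call was lost without the first (adjusted p = 0.196) or the second sh-Scb library (adjusted p = 0.208). Of the 6 genes that overlap RARB, none is protein-coding.

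RARG encodes RARγ and lies on chromosome 12 from 53210567 to 53232980, with no overlapping gene. It had 37.5 and 37.7 CPM in sh-Scb libraries against 31.0 and 34.9 CPM in sh-SAPCD2 libraries. The knockdown libraries were both lower, by a log2 fold change of −0.19 that did not pass the test (95% confidence interval −0.50 to 0.12, adjusted p = 0.32 by edgeR). With the correction for GC content and length, the log2 fold change was −0.35 (adjusted p = 0.0175). RARG transcripts have a GC content of 60.2% and RARA transcripts 61.9%, against 42.8% for RARB.

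Compared per kilobase of canonical transcript, the order of the 3 RAR genes differed between the groups. In the control libraries RARA stood at 6.64 and 6.13 CPM per kb, RARB at 12.03 and 12.1, and RARG at 12.9 in both. In the knockdown libraries RARA stood at 8.97 and 11.1 CPM per kb, RARB at 8.14 and 7.78, and RARG at 10.6 and 11.98. RARA was therefore the lowest of the 3 in both controls, and RARB was the lowest in both knockdown libraries. The ratio of RARA to RARB within a library, which does not depend on library size, was 0.552 and 0.506 in sh-Scb libraries against 1.10 and 1.43 in sh-SAPCD2 libraries. Of the summed RAR level, RARA made up 21.1% and 19.7% in controls and 32.4% and 36% after knockdown, while RARG held 38.3% to 41.5% in all 4 libraries. The sum itself was 31.5 and 31.1 CPM per kb in controls and 27.7 and 30.9 after knockdown. With the correction for GC content and length, an alternative chosen after seeing the data, the ratio was 0.615 and 0.569 in controls and 1.19 and 1.05 after knockdown. RARA at 9.53 and 8.98 and RARB at 7.98 and 8.55 corrected CPM per kb then lay closer together in the knockdown libraries, with RARB still the lowest of the 3 in each. These ratios are descriptive, and they use 1 transcript length per gene although RAR genes have several isoforms.

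**Figure D2:**
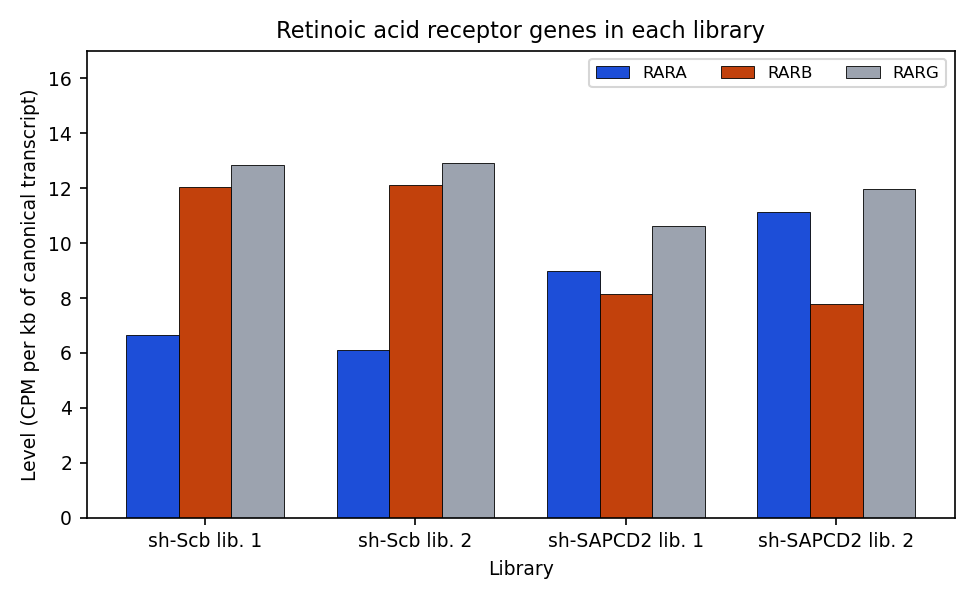
Level in CPM per kb of canonical transcript (y, from 0) of RARA, RARB and RARG in each of the 4 libraries (x), with no error bars because each bar is 1 library. RARA is the lowest bar in both sh-Scb libraries (6.64 and 6.13) and RARB in both sh-SAPCD2 libraries (8.14 and 7.78).

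RXR proteins are the shared partners of RAR and of other nuclear receptors. RXRA, on chromosome 9 from 134317098 to 134440585, had 34.4 and 34.5 CPM in sh-Scb libraries against 28.01 and 32.1 CPM in sh-SAPCD2 libraries. Its log2 fold change of −0.20 did not pass the test (95% confidence interval −0.52 to 0.12, adjusted p = 0.316 by edgeR), and was −0.41 (adjusted p = 0.00833) with the correction for GC content and length. RXRB, on chromosome 6 from 33193588 to 33200665, had 10.2 and 11.0 CPM in sh-Scb libraries against 10.5 and 14.6 CPM in sh-SAPCD2 libraries. The groups overlapped, and the log2 fold change was 0.25 (95% confidence interval −0.24 to 0.74, adjusted p = 0.409). It was −0.0044 without the second sh-SAPCD2 library and 0.45 (adjusted p = 0.047) without the first, so a single library set its size and side. RXRB overlaps SLC39A7 on the other strand and lies in the MHC region, for which hg38 has alternate sequences. The matrix holds 8147 identifiers with no match in the GENCODE annotation, and whether reads of RXRB were split with copies among them was not tested, so its level is uncertain. RXRG, the third RXR gene, had no count in any library.

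CRABP1 and CRABP2 rose together and were the most abundant of the 10 genes per transcript length. CRABP1, on chromosome 15 from 78340353 to 78348225, had 24.7 and 25.3 CPM in sh-Scb libraries against 38.8 and 47.1 CPM in sh-SAPCD2 libraries. Its log2 fold change was 0.78 (SE 0.145, adjusted p = 0.0142 by edgeR). CRABP2, which hands retinoic acid to RAR in the nucleus, lies on chromosome 1 from 156699606 to 156705816 with no overlapping gene. It had 2162 and 2045 counts in sh-Scb libraries against 2992 and 4721 counts in sh-SAPCD2 libraries, or 78.3 and 74.3 against 118 and 150.3 CPM. Both knockdown libraries exceeded both controls for each gene, and the second knockdown library was the higher. CRABP2 means were 76.3 ± 2.79 and 134 ± 22.7 CPM (SD, n = 2 per group), which gave a log2 fold change of 0.82 (SE 0.141, adjusted p = 0.0116). Without the first or second sh-Scb library the adjusted p of CRABP1 was 0.0994 or 0.081, and that of CRABP2 was 0.0355 or 0.0593. Within each library, the ratio of CRABP2 to CRABP1 per kilobase stayed between 2.22 and 2.42.

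The enzymes were near the bottom of the range. CYP26A1, the retinoic acid hydroxylase with both repeats shown above, lies on chromosome 10 from 93073475 to 93077885 and had 0 counts in 3 libraries and 3 counts in the second sh-SAPCD2 library. CYP26B1, on chromosome 2 from 72129238 to 72147862, had 2 counts in each control and 0 in each knockdown library. Both were below the filter and were not tested. A difference in either was not detectable at this depth, and no fold change is given because both groups lie at or below the floor. CYP26C1, the remaining member of that family, had no count. DHRS3, on chromosome 1 from 12567910 to 12618210, had 77 and 71 counts in sh-Scb libraries against 68 and 78 in sh-SAPCD2 libraries, or 2.48 to 2.79 CPM in all 4 libraries. The groups overlapped, with a log2 fold change of −0.06 (95% confidence interval −0.64 to 0.53, adjusted p = 0.887 by edgeR).

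Ranked per kilobase of transcript, the control means fell from CRABP2 (78.3 CPM per kb) and CRABP1 (33.9) to RARG (12.9), RARB (12.1), RARA (6.38), RXRA (6.23), RXRB (3.67) and DHRS3 (1.22). The libraries of RARA and RXRA overlapped. In knockdown cells the order was CRABP2 (138), CRABP1 (58.2), RARG (11.3), RARA (10.05), RARB (7.96), RXRA (5.43), RXRB (4.35) and DHRS3 (1.17). There the libraries of RARG and RARA overlapped, and those of RXRA and RXRB came within 5.06 and 5.04 CPM per kb of each other.

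**Figure D3:**
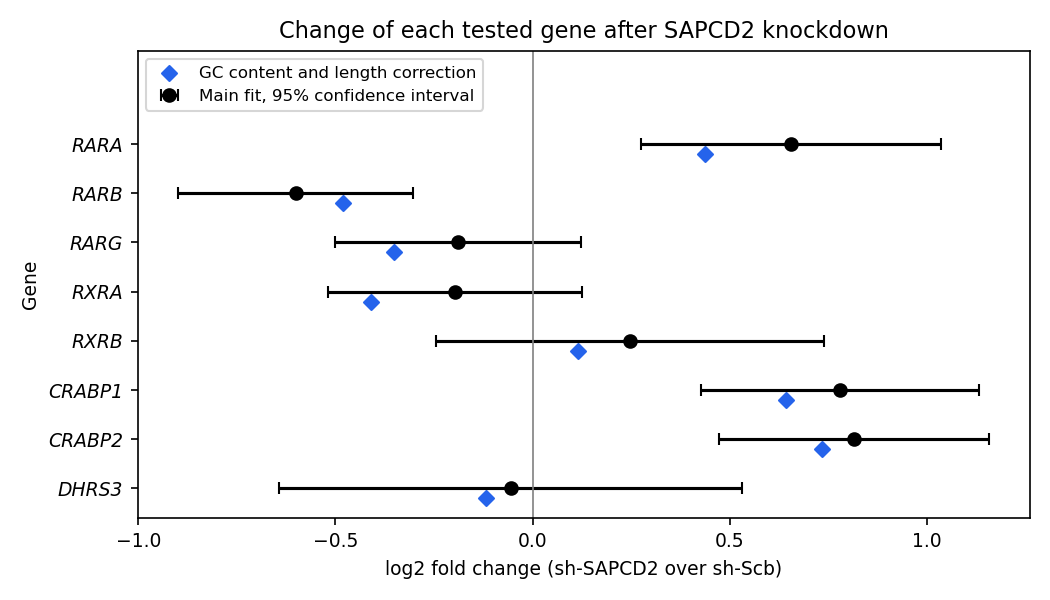
Log2 fold change of sh-SAPCD2 over sh-Scb (x) for each tested gene (y), with black points and bars for the estimate and its 95% confidence interval from edgeR, and blue diamonds for the estimate after correction for GC content and length. The intervals of RARA, CRABP1 and CRABP2 lie above 0 and that of RARB below it, and the correction moved RARG to −0.35 and RXRA to −0.41.

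The shRNA was compared with the 3′ untranslated regions (UTRs) of the 10 genes, because small RNAs can lower transcripts that match bases 2 to 8 of an arm. Both arms of sh-SAPCD2 #1 are given with these bases in capitals.
sh-SAPCD2 #1, guide arm: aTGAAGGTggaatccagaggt
sh-SAPCD2 #1, passenger arm: aCCTCTGGattccaccttcat

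The match to the guide seed, ACCTTCA, occurred once in the canonical 3′ UTR of RARB and once in that of RXRA, against 12.5% of 13581 tested genes. The match to the passenger seed, CCAGAGG, occurred once each in RARG, RXRA and RXRB, against 17.6% of tested genes. These sites are shown with the match in capitals.
RARB, chr3:25596650-25596656, plus strand: ccccagtACCTTCAgttccag
RXRA, chr9:134439306-134439312, plus strand: ccccggcACCTTCAggcacgc
RARG, chr12:53210847-53210853, minus strand: ccctgacCCAGAGGaagcctc
RXRA, chr9:134438767-134438773, plus strand: cgcggctCCAGAGGaaaaagc
RXRB, chr6:33194293-33194299, minus strand: aactcccCCAGAGGtggatac

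A guide seed match was thus held by RARB, which fell, and by RXRA, which was lower in both knockdown libraries but not called. A passenger match was held by RXRA, by RARG, also lower in both knockdown libraries but not called, and by RXRB, whose groups overlapped. RARA, CRABP1, CRABP2 and DHRS3 carry neither. The part of these sites in the results was not tested. A shifted site of the guide arm singled out in an earlier look at these data (TCCACCT) was present in CYP26B1 alone of the 10 genes. The background was 17.9% of 13581 tested genes, and CYP26B1 itself was below the filter and not tested. The other 3 shifted sites were in none of the 10, and 33.9% of tested genes held any of the 4. The 10 genes are too few to compare with that share. The part of the shifted sites in the results was not tested.

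Genes that make and carry retinoids upstream of the receptors moved in both directions. Of 38 other genes of retinoid metabolism and transport, 17 passed the filter on low counts and 11 had no count in any library. Among the 17, 5 were higher (29.4%) and 2 were lower (11.8%), against the background of 12.4% and 12.5%, with a median log2 fold change of 0.02. ALDH1A3, which oxidizes retinal to retinoic acid, had 10.6 and 11.3 CPM in sh-Scb libraries against 32.1 and 35.6 CPM in sh-SAPCD2 libraries. This was a 3.09-fold rise (log2 fold change 1.63, SE 0.142, adjusted p = 0.00263 by edgeR). Both knockdown libraries were far above both controls. Of its relatives, ALDH1A1 had no count and ALDH1A2 had 3 and 0 counts in controls and 12 and 8 after knockdown, too few to be tested. AKR1C3, an aldo-keto reductase that acts on steroids and on retinal, rose from 7.86 and 9.34 to 32.8 and 37.3 CPM (log2 fold change 2.03, adjusted p = 0.0023). AKR1C3 has close paralogs, between which reads may be split, so its level is uncertain. DHRS7, a short-chain dehydrogenase, had a log2 fold change of 0.59 (adjusted p = 0.019), which was lost without either control (adjusted p = 0.262 and 0.137) and without the filter on low counts (0.056). RDH14, a retinal reductase, rose by 0.50 on the log2 scale (adjusted p = 0.0486), a call lost without either control (0.331 and 0.377). STRA6, the cell surface receptor for retinol binding protein, fell by 0.52 (adjusted p = 0.0468) and the retinol dehydrogenase RDH11 fell by 0.44 (adjusted p = 0.0407) on the same scale. Neither STRA6 nor RDH11 passed the test without either control, or without the filter on low counts (adjusted p = 0.104 and 0.101 by edgeR). STRA6 also missed the threshold under DESeq2 (adjusted p = 0.0632).

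**Figure D4:**
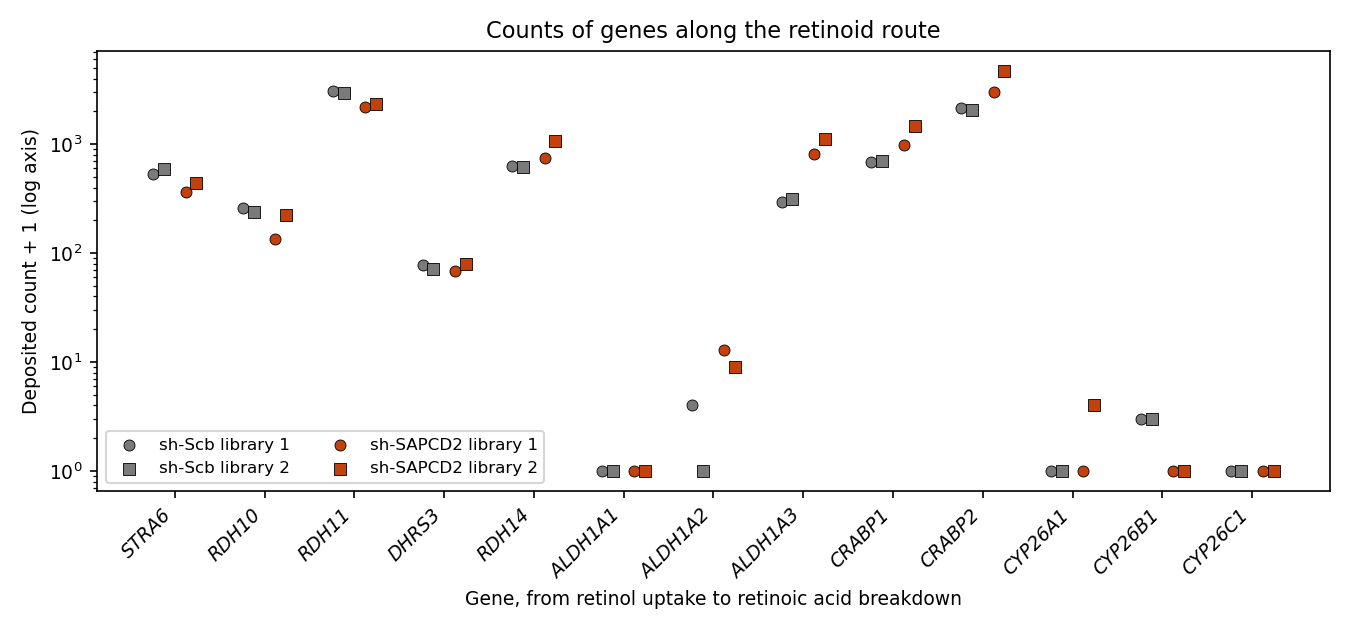
Deposited counts plus 1 on a log axis (y) of genes from retinol uptake to retinoic acid breakdown (x), 1 point per library, gray for sh-Scb and orange for sh-SAPCD2, without scaling for library size. ALDH1A3 and both CRABP genes are higher in the orange points, and ALDH1A1 and the CYP26 genes lie at or near 0 counts.

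All 23 cofactors and competitors of the receptors were tested. Of these, 4 were higher (17.4%) and 6 were lower (26.1%), against the background of 12.4% and 12.5%, with a median log2 fold change of −0.23. Both counts moved when 1 library was left out, as did the counts over all tested genes, so neither is stable. ZNF423, a zinc finger protein that binds RAR and RXR and is needed for the retinoic acid response of neuroblastoma cells, had 41.7 and 39.8 CPM in sh-Scb libraries against 18.2 and 17.3 CPM in sh-SAPCD2 libraries. It fell by 1.20 on the log2 scale (SE 0.127, adjusted p = 0.00365 by edgeR), and was called under all 11 alternatives. PRAME, a repressor of RAR signaling, rose from 26.1 and 26.6 to 49.5 and 43.4 CPM (log2 fold change 0.82, adjusted p = 0.00941). Of the subunits of the corepressor complex, TBL1X rose by a log2 fold change of 0.60 (adjusted p = 0.0159). GPS2 fell by 0.59 on the log2 scale (adjusted p = 0.0274), TBL1XR1 fell by 0.54 (adjusted p = 0.0286) and the histone deacetylase HDAC3 fell by 0.49 (adjusted p = 0.0287). GPS2 overlaps EIF5A on the other strand, and reads of the pair cannot be told apart. Without either control, the adjusted p of PRAME was 0.0737 and 0.0637, that of TBL1X 0.217 and 0.216, that of GPS2 0.245 and 0.202, that of TBL1XR1 0.207 and 0.198, and that of HDAC3 0.414 and 0.207. GPS2, TBL1XR1 and HDAC3 were also lost without a filter on low counts (adjusted p = 0.0675, 0.0845 and 0.0713). NCOR1, a corepressor, did not pass the test (adjusted p = 0.298 by edgeR). Its log2 fold change ranged from −0.46 to −0.04 when 1 library was left out.

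Of 14 other receptors that pair with RXR or belong to its family, 9 were tested, with 2 higher (22.2%), 1 lower (11.1%), against the background of 12.4% and 12.5%, and a median log2 fold change of −0.23. NR4A1, an orphan receptor induced by growth signals, rose from 19.6 and 22.0 to 31.9 and 42.3 CPM (log2 fold change 0.83, adjusted p = 0.0207). NR1H2, the oxysterol receptor LXRβ, had 10.4 and 9.96 CPM in controls and 14.5 and 23.6 CPM after knockdown (log2 fold change 0.90, adjusted p = 0.0451). PPARD, a receptor for fatty acids, fell by 0.63 on the log2 scale (adjusted p = 0.0261), while NR4A2 had a log2 fold change of −0.55 (adjusted p = 0.143). The 3 calls were each lost without the filter on low counts (adjusted p = 0.0681, 0.134 and 0.0713). NR4A1 was also lost without the first sh-Scb library (0.11), NR1H2 without the second (0.0685) and PPARD without either (0.235 and 0.125).

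Genes known to respond to retinoic acid did not move one way. Of 39, 24 were tested, with 3 higher (12.5%) and 4 lower (16.7%) and a median log2 fold change of −0.21. These shares are near the background of 12.4% and 12.5%. RET, the receptor tyrosine kinase that retinoic acid induces in neuroblastoma cells, rose from 412 and 395 to 931 and 1122 CPM, a 2.55-fold rise (log2 fold change 1.35, SE 0.119, adjusted p = 0.00264 by edgeR). Both knockdown libraries were above both controls, and the call held under all 11 alternatives. In the other direction, CD38 had 40 and 38 counts in controls and 5 and 6 after knockdown (log2 fold change −2.84, adjusted p = 0.00787). It encodes an ectoenzyme strongly induced by retinoic acid in myeloid cells. Its knockdown counts lay near the floor, and it had no adjusted p under DESeq2 or with the filter of a mean of 1 CPM. RAI14 fell from 13.7 and 15.6 to 6.36 and 4.97 CPM (log2 fold change −1.38, adjusted p = 0.00686). HOXD3 had 11.98 and 13.3 CPM in controls and 6.16 and 7.51 CPM after knockdown (log2 fold change −0.88, adjusted p = 0.0197). HOXD3 overlaps HOXD4 and antisense genes, and its call was lost without the second sh-Scb library (adjusted p = 0.0985) and without the filter on low counts (0.0578). The 8 genes of the HOXA and HOXB clusters in the list had no count in any library. TGM2, another classic retinoic acid target, had a log2 fold change of −0.05 (adjusted p = 0.854).

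Neuronal differentiation markers, which retinoids raise in neuroblastoma lines, included 7 higher (35%) and 3 lower genes (15%) among 20 tested, against the background of 12.4% and 12.5%, with a median log2 fold change of 0.28. Both counts were smaller without either control, as were the counts over all tested genes. The neurofilament genes NEFM and NEFH rose by log2 fold changes of 0.84 and 1.11 (adjusted p = 0.00343 and 0.00313). The secretory granule genes VGF and SCG2 rose by 2.02 and 1.34 (adjusted p = 0.00313 and 0.00263). VGF had 103 and 95.4 CPM in sh-Scb libraries against 326 and 480.1 CPM in sh-SAPCD2 libraries, so the knockdown libraries differed between themselves as well. The 3 that fell were the microtubule regulator STMN2 (log2 fold change −0.50), the granule protein CHGB (−0.83) and the synaptic vesicle protein SYN1 (−0.59). The calls of STMN2 (adjusted p = 0.172 and 0.182) and SYN1 (0.298 and 0.182) were lost without either control, and SYN1 also without the filter on low counts (0.0737).

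**Figure D5:**
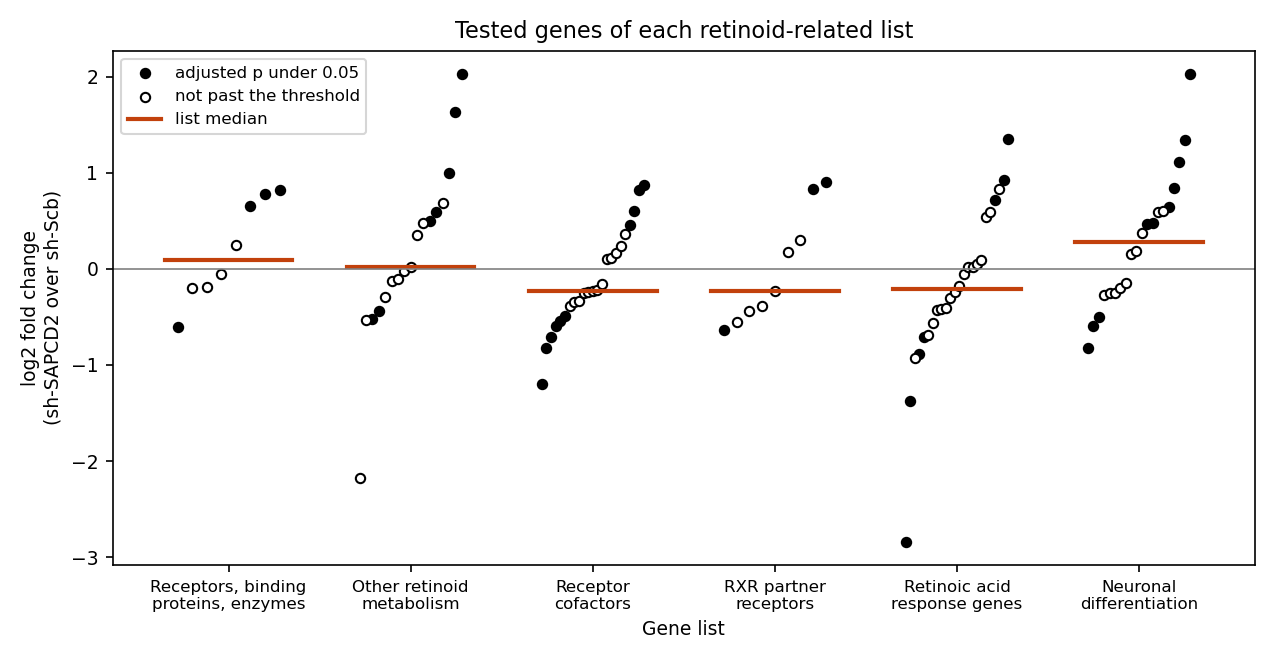
Log2 fold change of sh-SAPCD2 over sh-Scb (y) for every tested gene of each list (x), filled where the adjusted p is under 0.05, with the list median as an orange bar. Medians run from −0.23 for the cofactors and RXR partners to 0.28 for the neuronal differentiation markers, and each list holds genes that rose and genes that fell.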

How the data were processed

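RNA-seq libraries of 4 samples were grouped by the condition and replicate number in the labels. The authors aligned paired-end reads to hg38 with HISAT2 2.2.0 and quantified genes with StringTie, and deposited unscaled whole-number counts per Ensembl gene. How abundances became counts, the annotation release and the strand setting are not given in the sources used here. Reads of named genes that overlap another gene, ALDH1A3, GPS2 and NR1H2 among them, therefore cannot be told apart from reads of that gene. Counts were scaled by TMM and tested with edgeR 4.0.16 in R 4.3.3 (glmQLFTest) after filterByExpr, which left 18779 genes. This filter asked for a level equal to 10 counts at the median library size in at least 2 libraries, and 15 counts in all. CPM values are TMM-scaled. Confidence intervals are the fitted log2 fold change plus or minus the t quantile times its standard error. Symbols, positions, transcript lengths and 3′ UTRs came from GENCODE 44. The 10 genes and all lists were chosen with earlier results of these data known. Besides the 10 genes, the 4 genes with the smallest p of each list were named, apart from items not reported here, and genes named beyond these were chosen after their values were seen. Alternatives were DESeq2 1.42.0, its size factors, library totals, 2 other filters, the replicate block, a loess correction (span 0.3) for GC content and length, and each library left out. The code was tested on simulated data.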

Additional observations from a re-analysis of the deposited data

How the results depend on the processing

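Over the single genes and alternatives, 357 values kept their direction and side of the threshold, 51 lost the call, 4 gained it and 4 changed sign. Without a filter on low counts, 1081 genes were higher and 1180 lower, and SAPCD2 had −0.91 (adjusted p = 0.0749). Higher genes then numbered 3 in retinoid metabolism, 2 among cofactors, 0 among RXR partners and 1 among response genes, and lower genes 0, 1, 0 and 2. With the correction for GC content and length, 3870 genes were higher and 3544 lower, with 3 lower members, 4 lower genes of retinoid metabolism, 11 cofactors, 3 RXR partners, 8 response genes and 6 differentiation markers. Lower genes of retinoid metabolism numbered 1 under DESeq2 and 1 with the replicate block. The replicate block changed no other count by more than 1.5 times, and of the named genes lost the calls of STRA6 (adjusted p = 0.0506) and RDH14 (0.0524). Deviations of same-numbered libraries had a correlation of −0.0188 across genes. The sh-SAPCD2 pair had the larger spread, so this value cannot tell whether same-numbered libraries share more than the number. Leaving out 1 library gave 1176 to 4396 higher and 1146 to 4014 lower genes, 0 to 4 higher and 0 to 1 lower members, and 3 to 6 higher and 0 to 3 lower genes of retinoid metabolism. Cofactors ranged from 0 to 8 higher and 1 to 13 lower, RXR partners from 1 to 2 and 0 to 2, response genes from 1 to 4 and 2 to 8, and differentiation markers from 4 to 10 and 1 to 6. RXRB ranged from −0.0044 to 0.45, DHRS3 from −0.12 to 0.00293 and TGM2 from −0.18 to 0.0597, and all changed sign. The cause of these shifts was not tested. With 1 library left in a group, that library is assumed to vary like the other group. Depth limits CYP26A1 and CYP26B1.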
